A study of Bos taurus with 96 samples.

Results

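Kidney fat (Kid), which surrounds the kidney inside the abdominal cavity, was compared with subcutaneous fat over the rump (SC) in cattle. All 12 arrays labelled kidney fat and all 12 labelled subcutaneous fat were used, 24 of the 96 arrays of the series, and they were chosen by their labels alone. Each depot held 4 arrays from Angus, 4 from Hereford and 4 from Wagyu x Angus steers, all pasture fed in the feeding field of the labels and 26 months old after 259 days in a feedlot. The other arrays of the series are 12 each of omental (Omen), intermuscular (Inter) and intramuscular (IMF) fat from the same 3 breeds, and 36 of longissimus dorsi muscle (LD).

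No steer carried a transgene or received an experimental agent, so depot and breed were the only labelled differences between the 24 arrays. Tissue was dissected after slaughter and frozen, and a fixed mass of total RNA was labelled with Cy3 for a 1-colour Agilent bovine array. Every value therefore describes a gene relative to the other RNA of the same sample. The RNA samples hybridised had been picked by the study for integrity and purity, and the depots were sampled from one set of steers, although the labels do not tie a Kid array to an SC array of the same animal. The p-values below therefore measure the spread between these arrays. In whole tissue, fewer cells of a type and less RNA per cell cannot be told apart.

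White fat stores triglyceride and releases fatty acids when beta-adrenergic signals activate the lipases of the adipocyte. Fat around the kidney is the main brown fat depot of newborn calves and lambs, where UCP1 in the mitochondrial inner membrane turns fuel oxidation into heat, and it becomes white as the animal grows. Fat inside the body cavity and fat under the skin also descend from different embryonic regions, and adult fat cells and their precursors keep the developmental transcription factors of the region they came from. Fat is wrapped in a collagen matrix made by fibroblasts and preadipocytes, and it holds vessels, nerves and immune cells beside the adipocytes.

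A level below is the log2 processed signal of a probe minus the 75th percentile of its array, so a level of 0 is the 75th percentile, and a difference is Kid minus SC from a linear model with breed as a covariate. The 12 Kid arrays were brighter, with 92.6% to 97.1% of probes well above background against 87.0% to 95.3% on the SC arrays. They also varied more, as the SD of a probe between arrays had a median of 0.37 in Kid and 0.27 in SC. Scan days were not balanced, because 11 of 12 SC arrays and 5 of 12 Kid arrays were scanned on the first day, and values within that day are given beside many of the results. The defining adipocyte genes ADIPOQ, PLIN1 and FABP4 were well above background on all 24 arrays, whereas the kidney genes UMOD and LRP2 were not among the named genes measured.

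Among the 24 Kid and SC arrays 1 went against its label. After each probe was centred on its mean over the 60 fat arrays, the Hereford array labelled Kid 2 had a correlation of 0.13 across probes with the mean of the other Kid arrays and of 0.57 with the mean of the Inter arrays. The other 11 Kid arrays had correlations of 0.23 to 0.62 with the Kid mean and of -0.16 to 0.33 with the Inter mean, and each was nearest to Kid. All 12 SC arrays were nearest to SC, with correlations of 0.48 to 0.78. The array stays in the comparison as labelled, and the values that rest on it are also given without it. A second group of 3 arrays, Kid 1, 5 and 12, had summed macrophage marker levels of 215.4 to 448.9, where the level of the 75th percentile counts as 1, against 63.3 to 141.6 on the other 9 Kid arrays and 66.9 to 272.7 on the SC arrays, and summed adipocyte marker levels of 525.9 to 545.3 against 701.6 to 1017.6 and 766.2 to 1165.9. Kid 4 and Kid 11 had summed skeletal muscle marker levels of 22.1 and 24.3, and the other 10 Kid arrays lay between 6.6 and 13.4. SC 10 had a summed smooth muscle marker level of 721.5 against 234.3 to 330.5 on the other 11 SC arrays. These 6 arrays were picked out by their marker sums, so values of the genes of those cell types without them move through the choice itself, and calls gained or lost in that way are given only as values.

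**Figure D1:**
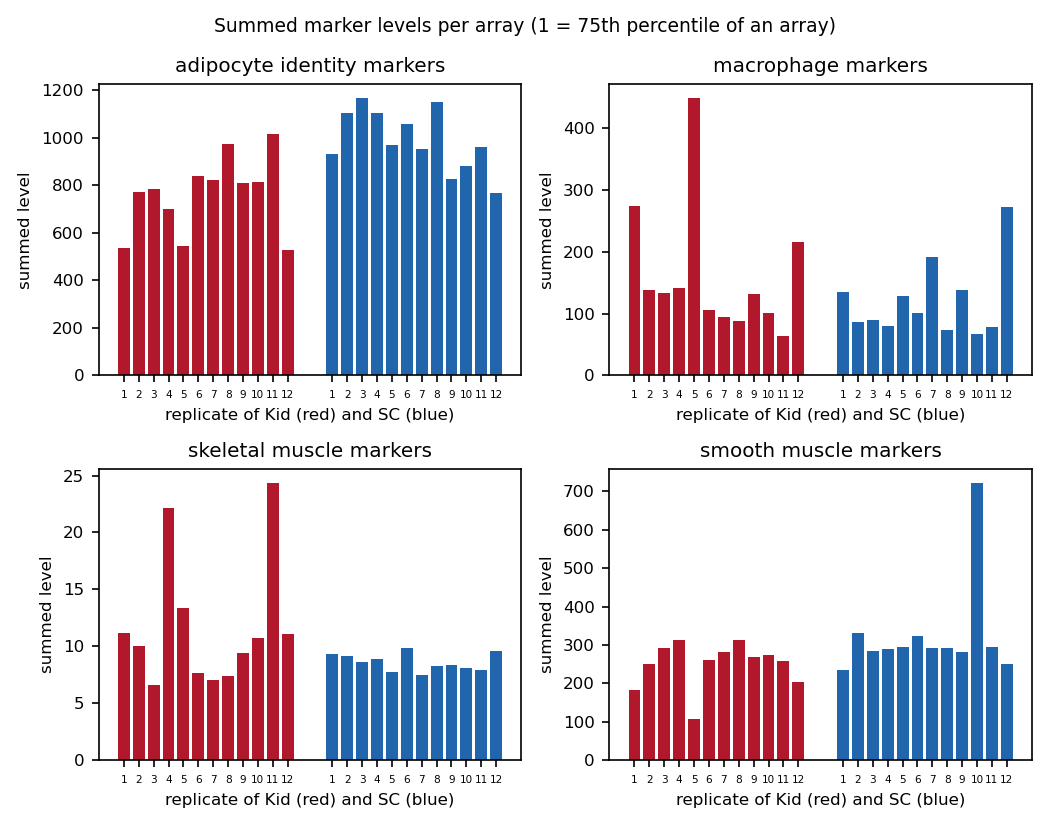
Summed marker levels per array (linear scale, 1 = 75th percentile of an array) of the adipocyte, macrophage, skeletal muscle and smooth muscle lists, with Kid arrays in red and SC arrays in blue, numbered by replicate. Kid 1, 5 and 12 are high for macrophage and low for adipocyte markers, Kid 4 and 11 are high for skeletal muscle markers, and SC 10 is high for smooth muscle markers.

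Of 34227 probes tested, 14299 (41.8%) were past an adjusted p of 0.05, 6658 of them (19.5%) higher in Kid and 7641 (22.3%) lower. In 1205 probes (3.52%) all 12 Kid arrays lay on one side of all 12 SC arrays. Most differences were small: 1061 probes were higher and 1161 lower by at least 2-fold, 122 and 178 by at least 4-fold, and 22 and 33 by at least 8-fold. Within scan day 1 the count was 10354 (30.3%), and with scan day as a block over the 24 arrays it was 10980. The 24 arrays lay on 7 slides, of which only 2 held both depots, so slide and depot can be told apart only in part: the count was 1136 with slide as a fixed block and 11725 with slide as a random block. With the fixed slide block 19 of the 23 leading genes described below stayed past the threshold, all but BTC, LOC790886, CHRNA3 and CLDN11. Of the 127 probes of genes named below 110 were past the threshold, and 69 of these lost their call with that block but kept their direction. Among the 69 were those of HOXA2, HOXA10, CLDN10, TDH, UCP1, ACACA, FASN, NOG, CFB and CXCL3. The log2 values that the authors deposited for each probe, which were not scaled between arrays, gave 26662 calls, 98.4% of them higher in Kid, around a median difference of 0.83 over all probes. Without the array labelled Kid 2 the count was 14415, of which 13556 were also past the threshold with it and in the same direction, and the probes with no overlap numbered 1396. Taking 1 probe for each of 10653 named genes, 4785 genes (44.9%) were past the threshold, 2207 higher (20.7%) and 2578 lower (24.2%), 495 genes (4.65%) had no overlap, and the median difference was -0.01. The sizes of many differences, mostly of dim genes, also depended on the background correction. With normexp correction and quantile normalization, 34 of the 110 probes of genes named below that were past the threshold had a difference smaller by more than 1.5 times, 32 of them still past it, and none had a larger one by that much. Against this background the shares of the gene lists below are to be read.

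**Figure D2:**
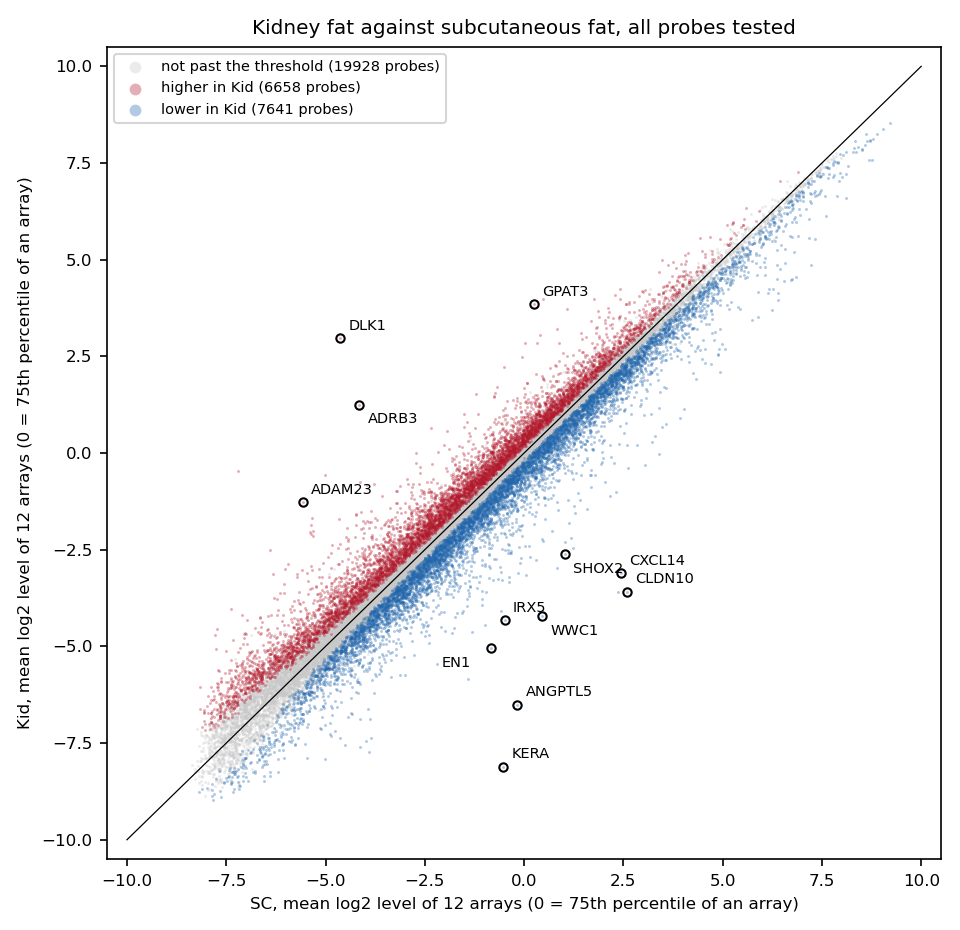
Mean log2 level of each of 34227 probes in the 12 SC arrays (x axis) and the 12 Kid arrays (y axis), with 0 the 75th percentile of an array and the line marking equal levels. The 6658 probes higher in Kid are red, the 7641 lower are blue, and DLK1, ADRB3, ADAM23 and GPAT3 lie farthest above the line while KERA, ANGPTL5, CLDN10 and CXCL14 lie farthest below it among the genes named.

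The highest difference belonged to DLK1, a membrane protein of preadipocytes that restrains their differentiation. Its probe had levels from -1.15 to 4.47 in Kid with a median of 3.36, and from -7.73 to -2.14 in SC with a median of -4.40. The difference was 7.61 (SE 0.62, adjusted p = 7.99e-09), or 5.85 with normexp, and it was 7.68 within scan day 1 and 8.04 without the array labelled Kid 2, which was the lowest Kid array. All 5 DLK1 probes were higher in Kid, but by very different amounts, from 0.89 to 7.61, and the probe with the highest mean level was the one with the smallest difference. SC was well above background at the leading probe on 8 of 12 arrays.

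ADRB3, the beta-3 adrenergic receptor that couples noradrenaline to fat breakdown in fat cells, had the most regular of the large increases. Kid arrays lay between 0.17 and 2.16 (median 1.35) and SC arrays between -4.97 and -3.09 (median -4.09), so the lowest Kid array was more than 3 log2 units above the highest SC array. The difference was 5.40 (SE 0.23, 42.2-fold, adjusted p = 6.40e-13), with 5.37 within scan day 1 and 5.52 without the array labelled Kid 2.

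GPAT3, an acyltransferase of the first step of triglyceride synthesis, ranged from 2.44 to 4.72 in Kid and from -0.83 to 1.22 in SC, a difference of 3.60 (SE 0.28, 12.2-fold, adjusted p = 3.84e-09) at the probe with the largest difference, and its 3 probes differed by 3.39 to 3.60. ADAM23, a membrane protein without protease activity, ranged from -3.36 to -0.28 in Kid and from -7.19 to -3.72 in SC. It differed by 4.30 (SE 0.38, adjusted p = 1.84e-08), or by 2.25 with normexp, and all of its 5 probes were higher. It was well above background on 7 of 12 SC arrays. The depots did not overlap at either gene.

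A group of smaller increases without overlap followed. ADAMTS4, a protease that cuts the proteoglycans aggrecan and versican, was 6.29-fold higher (SE 0.23 on the log2 scale, adjusted p = 1.69e-08). ASGR1, a receptor for glycoproteins that have lost their sialic acid and best known from liver, rose 7.96-fold (difference 2.99, SE 0.29, adjusted p = 8.27e-08), with the array labelled Kid 2 the highest at 2.32. Betacellulin (BTC), a ligand of the EGF receptor, differed by 2.65, the endocytic protein amphiphysin (AMPH) by 2.56 and the gap junction protein GJB6 by 2.54, and each was well above background on all 12 Kid arrays but on only 6, 10 and 3 SC arrays. With normexp these 3 differences were 0.88, 1.15 and 0.86. The unnamed loci LOC790886 and LOC513055, with differences of 2.74 and 2.53, were also among the 12 highest genes.

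**Figure D3:**
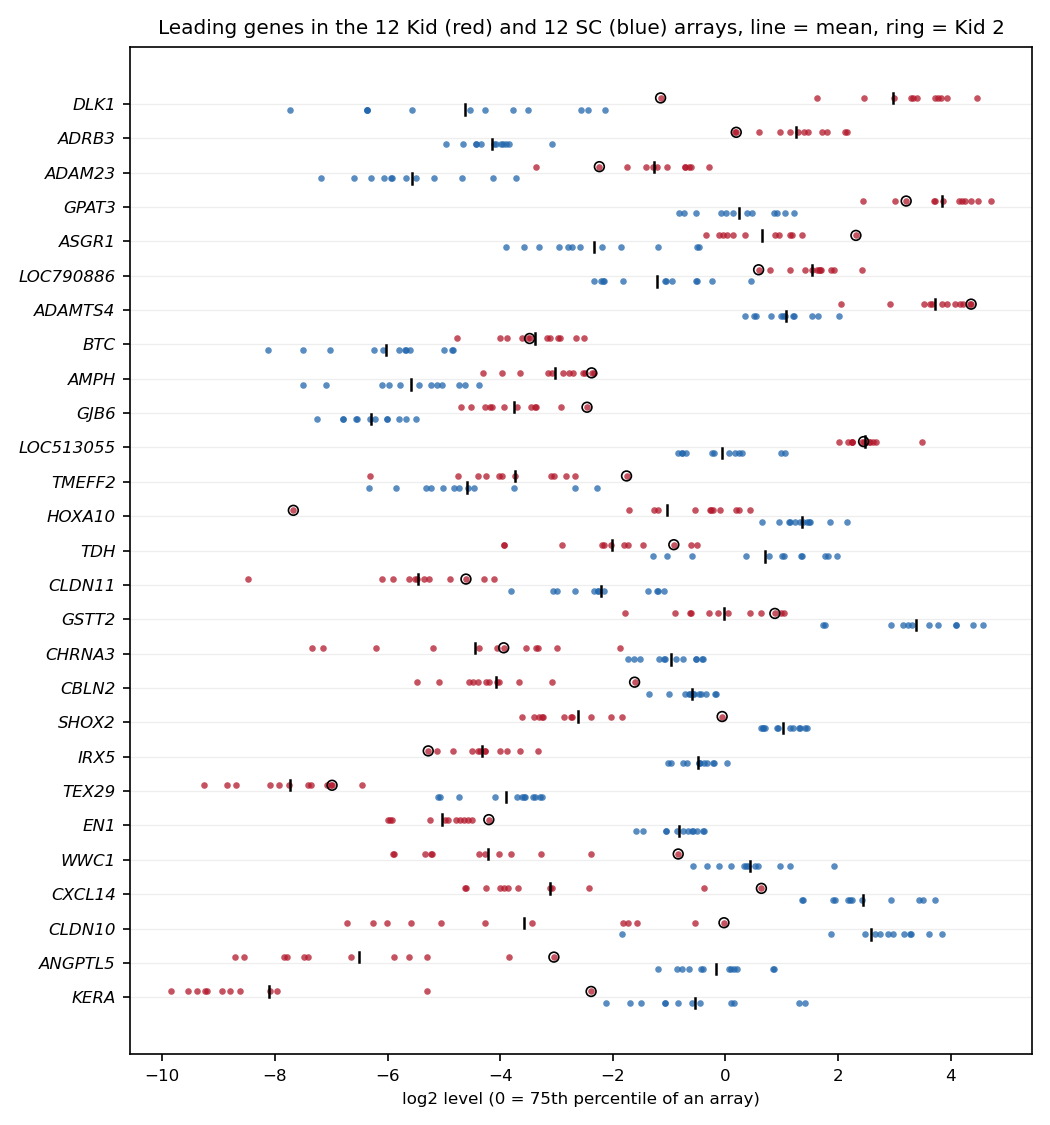
Log2 levels (0 = 75th percentile of an array) of 11 of the 12 highest genes and the 12 lowest genes without overlap and of HOXA10, TDH, TMEFF2 and CLDN10, with 1 point per array, Kid in red, SC in blue, vertical lines at the means and a ring around the array labelled Kid 2. The depots overlap only at TMEFF2, TDH and CLDN10, and the ringed array is the Kid array nearest to SC at several genes, among them DLK1, KERA, ANGPTL5, CXCL14, WWC1, SHOX2 and CBLN2.

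In the other direction the lowest difference on this scale was that of KERA, whose product keratocan is a keratan sulphate proteoglycan of collagen-rich connective tissue. Kid arrays ranged from -9.84 to -2.38 with a median of -8.87, and SC arrays from -2.13 to 1.42 with a median of -0.72. The difference was -7.58 (SE 0.64, adjusted p = 1.32e-08), or -3.32 with normexp, where CLDN10 (-4.84), CXCL14 (-4.52), ANGPTL5 (-3.40) and WWC1 (-3.39) were lower, the gene was well above background on 2 of 12 Kid arrays, and the highest Kid array was the one labelled Kid 2. Without that array the highest Kid level was -5.30 and the difference -8.06, and within scan day 1 it was -8.77. All 3 probes were lower.

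ANGPTL5, a secreted member of the angiopoietin-like family, ranged from -8.71 to -3.05 in Kid (median -7.03) and from -1.20 to 0.86 in SC (median -0.17), a difference of -6.33 (SE 0.55, adjusted p = 1.51e-08), or -3.40 with normexp. It was well above background on 6 of 12 Kid arrays. CXCL14, a chemokine secreted by skin and connective tissue cells, ranged from -4.63 to 0.64 in Kid (median -3.77) and from 1.36 to 3.72 in SC (median 2.23), 46.9-fold lower (difference -5.55, SE 0.52, adjusted p = 3.93e-08). The highest Kid value of ANGPTL5 and of CXCL14 came from the array labelled Kid 2, and without it the differences were -6.66 and -5.91. WWC1, the scaffold protein KIBRA of the Hippo pathway, was 25.3-fold lower (difference -4.66, SE 0.47, adjusted p = 1.02e-07), and -4.99 without that array. The gaps between the depots widened at all 3 genes when it was left out.

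The other lowest genes differed by less. CBLN2, a secreted organiser of synapses, differed by -3.48 and CHRNA3, a subunit of nicotinic acetylcholine receptors, by -3.47. CLDN11, a tight junction protein best known from myelin and the testis, differed by -3.26. With normexp the 3 differences were -2.28, -2.02 and -1.50. GSTT2, a glutathione transferase, ranged from -1.79 to 1.05 in Kid and from 1.73 to 4.57 in SC, 10.7-fold lower (SE 0.36 on the log2 scale, adjusted p = 2.21e-07). TEX29 was not well above background on any Kid array, so only a bound can be given. On this scale it was at least 8.04-fold lower in Kid (adjusted p = 9.01e-09). With normexp its difference was -0.95, which is smaller than that bound.

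Developmental transcription factors accounted for 3 of the 12 lowest genes. EN1, a homeobox factor of dorsal skin and ventral limb patterning, ranged from -6.00 to -4.20 in Kid (median -4.86) and from -1.59 to -0.37 in SC (median -0.71), a difference of -4.21 (SE 0.20, 18.5-fold lower, adjusted p = 1.25e-12), or -2.33 with normexp. IRX5, an Iroquois homeobox factor, ranged from -5.28 to -3.32 in Kid (median -4.31) and from -1.03 to 0.03 in SC (median -0.46), a difference of -3.83 (SE 0.17, 14.2-fold lower, adjusted p = 6.90e-13). These 2 genes were apart by more than 2 log2 units in every pair of arrays, and the differences without the array labelled Kid 2 were -4.30 and -3.76. SHOX2, a homeobox factor of the proximal limb, ranged from -3.61 to -0.06 in Kid (median -2.80) and from 0.63 to 1.45 in SC (median 1.04), a difference of -3.65 (SE 0.28, 12.6-fold lower, adjusted p = 3.76e-09). Its highest Kid value was again that of the array labelled Kid 2, and the highest of the other 11 Kid arrays was -1.84.

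Of 29 positional transcription factors measured outside the HOX clusters, 4 were higher in Kid and 12 lower, with a median difference of -0.29, and within scan day 1 the counts were 2 and 14. The median was -0.11 both with normexp and without Kid 1, 5 and 12. GATA5, a zinc finger factor of heart, gut and mesodermal development, was the highest, with levels from -4.46 to -1.94 in Kid and from -6.04 to -3.95 in SC that overlapped slightly (difference 2.15, SE 0.30, adjusted p = 6.08e-06, and 0.91 with normexp).

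The HOX genes, which give cells their position along the body axis, showed no common direction: of 18 measured, 3 were higher in Kid and 3 lower, with a median difference of -0.13, which was -0.28 within scan day 1, -0.049 with normexp and 0.00 without Kid 1, 5 and 12. HOXA4 (0.70), HOXA5 (1.10) and HOXB2 (0.92) were the higher members and HOXA2 (-2.23), HOXC5 (-0.98) and HOXA10 (-2.39) the lower ones. With normexp HOXB2 differed by 0.56 and HOXC5 by -0.49. Within the HOXA cluster, HOXA2 and HOXA10 were thus lower in Kid and HOXA4 and HOXA5, which lie between them, higher. HOXA2 was the most regular of them, with Kid arrays from -5.25 to -2.80 and SC arrays from -2.19 to -1.01 (SE 0.22, 4.69-fold lower, adjusted p = 1.14e-07). HOXC10, a factor of the lower body, differed by -0.10 (SE 0.25, adjusted p = 0.783).

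The fall in HOXA10 depended in its size on 1 array. The array labelled Kid 2 had a level of -7.67, whereas the other 11 Kid arrays lay between -1.72 and 0.43, below all SC arrays at 0.64 to 2.16. With all arrays the difference was -2.39 (SE 0.59, adjusted p = 0.00233), and without that array it was -1.81 (SE 0.22, adjusted p = 1.43e-06), with -2.01 within scan day 1. CLDN10, a tight junction protein of epithelia, differed by -6.17 (SE 0.79, 71.9-fold lower, adjusted p = 2.42e-06) despite an overlap, because SC 1 at -1.84 lay below 5 Kid arrays while the other SC arrays lay at 1.88 or above. TDH, an enzyme of threonine breakdown, was 6.60-fold lower with overlapping arrays, and TMEFF2, a membrane protein with follistatin modules, differed by 0.85 (SE 0.47, adjusted p = 0.155), or by 1.11 (adjusted p = 0.0393) without Kid 5, and it was past the threshold at the same difference in the fit over 60 fat arrays (adjusted p = 0.0357).

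**Figure D4:**
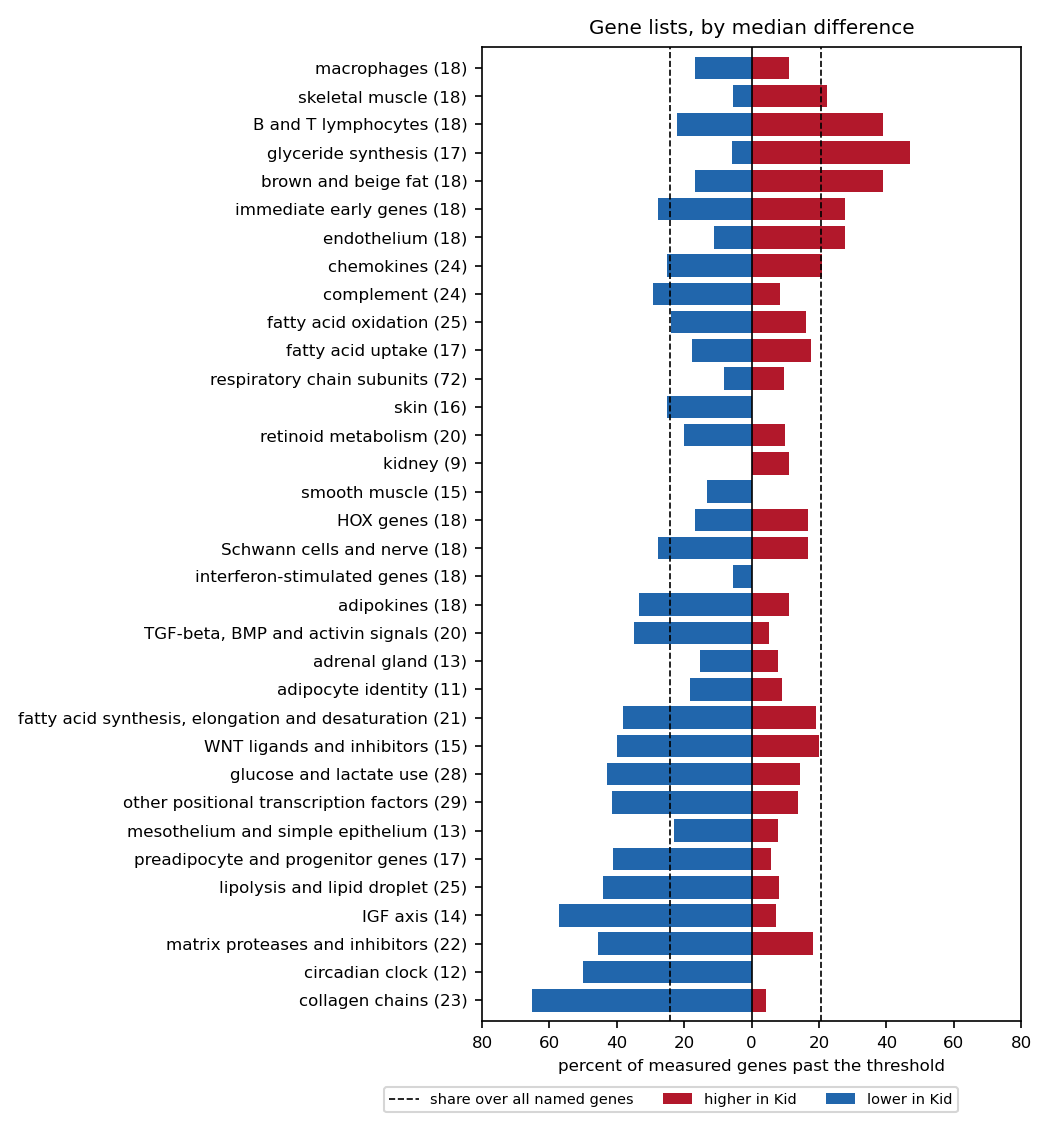
Share of the measured genes of each of 34 lists past an adjusted p of 0.05, lower in Kid to the left (blue) and higher to the right (red), ordered by the list's median difference, with the number measured in brackets. Dashed lines mark the shares over all named genes, 24.2% lower and 20.7% higher, and the collagen chains extend farthest to the left with 65.2%.

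Most of the collagen chains measured were lower in Kid. Of 23 chains measured, 15 were lower (65.2%) and 1 higher, with a median difference of -0.99, and 13 were lower and 1 higher within scan day 1. COL1A1, a chain of the main fibrillar collagen, ranged from 2.83 to 5.57 in Kid (median 3.44) and from 5.49 to 6.93 in SC (median 6.27), 5.77-fold lower (SE 0.26 on the log2 scale, adjusted p = 1.58e-07) with the 2 depots overlapping by 1 array each way at most. Its partner COL1A2 was 4.91-fold lower and COL3A1, the fibrillar collagen of soft tissue, 3.48-fold lower without overlap and at all 10 of its probes. COL6A6, a chain of the microfibrils around cells, had the lowest difference at -2.74 (SE 0.51, adjusted p = 0.000173), and it was -3.02 without the array labelled Kid 2, but with normexp it was -1.09 and those of COL1A1, COL1A2 and COL3A1 were lower, at -2.42, -2.14 and -1.67. The exception was COL28A1, a collagen known from peripheral nerve, at 2.51 (SE 0.46, adjusted p = 0.000149), or 0.93 with normexp. Summed over the list, the collagen level was 184.3 to 473.4 on the Kid arrays and 518.6 to 928.6 on the SC arrays.

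Matrix proteases and their inhibitors split: of 22 measured, 4 were higher and 10 lower, with a median of -0.44, and 5 and 6 within scan day 1, and the median was -0.19 with normexp. ADAMTS1, which like ADAMTS4 cuts proteoglycans, was 2.88-fold higher (SE 0.24 on the log2 scale, adjusted p = 2.65e-05). ADAMTS2, which trims the ends of fibrillar procollagen, ranged from 1.33 to 2.38 in Kid and from 2.74 to 3.27 in SC (difference -1.20, SE 0.11, adjusted p = 2.41e-08).

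In the TGF-beta, BMP and activin list 7 of 20 genes were lower and 1 higher (median -0.22), and the BMP inhibitors NOG and GREM1 led it. NOG ranged from -6.49 to -2.64 in Kid (median -3.68) and from -1.98 to 0.03 in SC (median -0.95), 7.34-fold lower (SE 0.34 on the log2 scale, adjusted p = 9.44e-07). GREM1 was 7.14-fold lower, with Kid arrays from -3.98 to -1.70 and SC arrays from -1.48 to 1.50. The ligand BMP2 was lower as well, by 4.22-fold (SE 0.17 on the log2 scale, adjusted p = 9.53e-09), whereas BMP4, which commits precursors to the fat lineage, differed by -0.07 (SE 0.18, adjusted p = 0.794).

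In the IGF axis 8 of 14 genes were lower and 1 higher, with a median of -0.43. IGFBP5, a binding protein that also attaches to the matrix, ranged from 0.35 to 3.89 in Kid (median 2.63) and from 4.19 to 5.74 in SC (median 4.87), 5.02-fold lower (SE 0.26 on the log2 scale, adjusted p = 4.72e-07). IGFBP6, which binds IGF2, was 3.79-fold lower, and IGF2 itself, a growth factor, 1.75-fold lower at all 10 of its probes (SE 0.12 on the log2 scale, adjusted p = 1.76e-05). IGF1 was 1.38-fold lower (adjusted p = 0.0339), a call that was lost when Kid 2, 6 or 12 or SC 6, 7, 8 or 12 was left out, with adjusted p-values of 0.0502 to 0.0647, and also with scan day as a block (adjusted p = 0.111), with scan day as a block over the 96 arrays (0.0685), with slide as a random block (0.0541) and with the methods' t-test (0.0501). GRB14, an adaptor that blocks the insulin receptor, was the higher member at 2.41 (SE 0.41, adjusted p = 7.18e-05), or 0.89 with normexp.

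Of 15 WNT ligands and inhibitors measured, 3 were higher and 6 lower (median -0.26), and 1 and 5 within scan day 1. The median was -0.13 with normexp and -0.12 without Kid 1, 5 and 12. The inhibitors moved both ways: DKK2 was 3.70-fold lower (SE 0.34 on the log2 scale, adjusted p = 0.000132), SFRP4 3.20-fold lower (adjusted p = 0.00638), and DKK3 2.05-fold higher (adjusted p = 0.000847), the last with 0.91 and an adjusted p of 0.0628 within scan day 1. In retinoid metabolism, with 2 higher and 4 lower of 20, CRABP2, which carries retinoic acid to its receptor, was 3.86-fold lower and RARRES1, a gene induced by retinoids, 3.04-fold higher. The difference of RARRES1 was 1.60, and 0.84 (adjusted p = 0.00423) without Kid 1, 5 and 12, which had its 3 highest levels.

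The lists of lipid metabolism did not move as one. In fatty acid synthesis, elongation and desaturation 4 of 21 genes were higher and 8 lower (median -0.25, and -0.55 within scan day 1), and without Kid 1, 5 and 12 the counts were 5 and 4 (median -0.11). ACACA, the acetyl-CoA carboxylase that commits carbon to fatty acids, ranged from -2.33 to 0.63 in Kid (median -0.69) and from -0.07 to 1.31 in SC (median 0.63), 2.67-fold lower (SE 0.30 on the log2 scale, adjusted p = 0.000578). SCD, the desaturase that makes oleic acid, was 2.27-fold lower at all 7 probes, with Kid arrays from 6.58 to 8.36 and SC arrays from 8.30 to 9.16 (SE 0.15 on the log2 scale, adjusted p = 2.63e-06). Its difference of -1.18 was -0.73 with quantile normalization and -0.70 with normexp. FASN, the fatty acid synthase, was 1.83-fold lower (adjusted p = 0.00856), but its difference of -0.87 became -0.57 (adjusted p = 0.0510) without Kid 1, 5 and 12, the arrays with the lowest adipocyte marker sums, and -0.54 (adjusted p = 0.0896) with quantile normalization. FADS2, the desaturase of polyunsaturated fatty acids, moved the other way, from -1.57 to -0.86 in Kid against -3.00 to -1.71 in SC (difference 1.05, SE 0.12, adjusted p = 8.91e-07).

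Over all arrays on this scale, glyceride synthesis was the list with the largest share of higher members. Of 17 genes 8 were higher (47.1%) and 1 lower, with a median of 0.34, and 5 and 1 within scan day 1. Within that day the lymphocyte list had a larger share higher, 6 of 18. Beside GPAT3, LPIN1, which makes diacylglycerol from phosphatidic acid, ranged from -3.63 to -0.01 in Kid (median -1.57) and from -5.12 to -2.84 in SC (median -4.24), 6.26-fold higher (SE 0.29 on the log2 scale, adjusted p = 3.20e-07), a difference of 2.65 that was 1.73 with normexp. GK, which phosphorylates glycerol for re-use, was 4.12-fold higher (SE 0.42 on the log2 scale, adjusted p = 0.000480), a difference of 2.04 that was 1.37 (adjusted p = 0.000629) without Kid 1, 5 and 12. PCK1, the cytosolic carboxykinase of glycerol synthesis from pyruvate, was 2.88-fold higher (SE 0.32 on the log2 scale, adjusted p = 0.000568), and its mitochondrial counterpart PCK2 was 1.88-fold lower (SE 0.18 on the log2 scale, adjusted p = 0.000358). DGAT2, the enzyme of the last step, differed by -0.27 (SE 0.16, adjusted p = 0.175).

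Of 25 lipolysis and lipid droplet genes 11 were lower and 2 higher, with a median of -0.42, and 11 and 3 within scan day 1. The median was -0.22 with quantile normalization and with normexp, and without Kid 1, 5 and 12 it was -0.14 with 12 lower and 4 higher. The 2 higher members were ADRB3 and ABHD5, the co-activator of adipose triglyceride lipase (difference 0.79, SE 0.15, adjusted p = 0.000259). The lipases themselves were not past the threshold, with differences of -0.19 (SE 0.17, adjusted p = 0.389) for PNPLA2 and -0.27 (SE 0.25, adjusted p = 0.405) for LIPE, nor was the droplet coat protein PLIN1 at -0.27 (SE 0.18, adjusted p = 0.246).

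Among genes of fatty acid uptake 3 of 17 were higher and 3 lower, but 6 and 2 with quantile normalization. The fatty acid carrier FABP5 was 1.73-fold higher (SE 0.14 on the log2 scale, adjusted p = 0.000159). Its relative FABP4, the main carrier of adipocytes, differed by -0.58 (adjusted p = 0.000258) on this scale, but by -0.00 with quantile normalization and 0.03 with normexp background correction and quantile normalization, so its direction was not settled. LPL, the lipase that frees fatty acids from lipoproteins, differed by 0.24 (SE 0.13, adjusted p = 0.140), and with quantile normalization by 0.45 (adjusted p = 0.00273). In glucose and lactate use 4 of 28 were higher and 12 lower (median -0.27), but 6 and 8 with quantile normalization, 7 and 7 with normexp, and 1 and 11 within scan day 1. SLC2A12, a glucose transporter, was higher by 1.69, or 0.35 with normexp, but well above background on 1 SC array, and SLC2A4, the insulin-regulated transporter, differed by -0.01 (SE 0.14, adjusted p = 0.969), but by -0.37 (adjusted p = 0.0178) with scan day as a block. PC, pyruvate carboxylase, was 2.33-fold lower (SE 0.19 on the log2 scale, adjusted p = 2.48e-05).

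For mitochondrial fuel oxidation the balance depended on the scaling. Fatty acid oxidation had 4 higher and 6 lower of 25 (median -0.03), or 5 and 3 with quantile normalization, and the first-step dehydrogenases of very long and medium chains, ACADVL and ACADM, were 1.50-fold and 1.52-fold higher. Of 72 respiratory chain subunits 7 were higher and 6 lower (median -0.04), with NDUFB2 at 0.66 and NDUFA3 at -0.59 at the ends. The shares past the threshold, 9.72% and 8.33%, were below those over all named genes. With quantile normalization 21 subunits were higher and 4 lower, and with normexp 20 and 4, with medians of 0.087 and 0.096.

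Of 18 genes of brown and beige fat 7 were higher (38.9%, against 20.7% over all named genes) and 3 lower, with a median of 0.21. Within scan day 1 the counts were 4 and 3 with a median of 0.04. With the median over the probes of each gene the list median was 0.50. The summed level was not higher in Kid, at 48.6 to 78.6 (median 67.6) against 56.2 to 106.0 in SC (median 69.2). UCP1 had levels from -6.19 to -1.99 in Kid (median -4.79) and from -8.18 to -4.20 in SC (median -7.39), and it was well above background on 11 Kid and 2 SC arrays. The difference was 2.66 (SE 0.53, adjusted p = 0.000341), with 2.09 within scan day 1, but 0.73 (adjusted p = 0.00395) with normexp. The beige marker TMEM26 differed by 1.83 (SE 0.30, adjusted p = 5.26e-05) and was well above background on 10 Kid arrays and 1 SC array, and with normexp its difference was 0.29. All of these levels lay far below the 75th percentile of their array. The 3 probes of CPT1B, the muscle and brown fat form of the mitochondrial fatty acid importer, disagreed: the one with the highest level differed by -1.01 and the others by 1.41 and 1.46.

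Of 11 adipocyte identity genes 1 was higher, PCK1, and 2 were lower (median -0.25), but this balance was not settled: 2 were higher and none lower with quantile normalization, 3 higher and none lower with normexp, and, through the choice of arrays, 4 higher and 2 lower without Kid 1, 5 and 12. ADIPOQ, adiponectin, differed by 0.25 (SE 0.15, adjusted p = 0.194), and by 0.37 (adjusted p = 0.0492) with normexp on all arrays. It differed by 0.47 without Kid 1, 5 and 12 and by 0.34 (adjusted p = 0.0428) without Kid 5 alone. The low adipocyte sums had picked out these arrays. LEP, leptin, differed by 0.27 (SE 0.32, adjusted p = 0.530). Among 18 adipokines 2 were higher and 6 lower: the secreted C1q family members C1QTNF3 and C1QTNF7 differed by 1.82 (SE 0.26, adjusted p = 8.37e-06) and -1.51 (SE 0.24, adjusted p = 3.90e-05), and ANGPTL4, an inhibitor of LPL, by -1.04 (SE 0.15, adjusted p = 1.11e-05).

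Preadipocyte and progenitor genes, DLK1 apart, were lower or not past the threshold, with 7 of 17 lower and 1 higher (median -0.39, and -0.21 without Kid 1, 5 and 12). PDGFRA, the receptor that marks fat precursors, was 1.80-fold lower at all 6 probes (SE 0.17 on the log2 scale, adjusted p = 0.000434). THY1, a surface protein of stromal cells, was 3.11-fold lower (SE 0.25 on the log2 scale, adjusted p = 2.03e-05). CCN5, a matricellular protein secreted by precursors, ranged from -3.29 to -1.79 in Kid and from -1.91 to 0.81 in SC, 4.33-fold lower (adjusted p = 1.17e-06).

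Of 18 macrophage genes measured, 2 were higher and 3 lower, with a median difference of 0.59 that became 0.01 without Kid 1, 5 and 12. These arrays were singled out by the sums of the same markers, so a smaller median without them follows from the choice. CD68, a lysosomal protein of macrophages, ranged from -0.64 to 5.35 in Kid and from -0.24 to 1.88 in SC (difference 0.67, SE 0.58, adjusted p = 0.373), and CSF1R, the receptor for their growth factor, differed by 0.41 (adjusted p = 0.213). CD14, the co-receptor for lipopolysaccharide, differed by 1.13 (adjusted p = 0.0443) and by 0.39 (adjusted p = 0.244) without those 3 arrays, and leaving out any one of 16 arrays, Kid 1, 3, 4, 5, 9, 10 or 12 or SC 2 to 10, also ended that call, with adjusted p-values from 0.0503 to 0.0826, as did scan day as a block (0.0779) and slide as a random block (0.115). CD163, the haemoglobin scavenger receptor, was 4.33-fold lower at its brightest probe (difference -2.11, SE 0.29, adjusted p = 6.12e-06) and lower at 3 of its 4 probes, while the fourth was higher.

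Of 18 lymphocyte genes 7 were higher (38.9%) and 4 lower, and 6 and 2 within scan day 1. The median of 0.48 was 0.25 within scan day 1 and 0.12 with normexp. The summed level ran the other way, with a median of 31.4 and a highest value of 37.7 in Kid, and values from 35.1 to 45.1 in SC (median 41.0). ZAP70, the kinase behind the T cell receptor, ranged from -3.66 to -2.18 in Kid and from -4.74 to -3.88 in SC (difference 1.31, SE 0.14, adjusted p = 2.44e-07, and 0.71 with normexp). CD3E, a chain of that receptor, was 1.79-fold higher (adjusted p = 0.00257) and CD8A, the co-receptor of cytotoxic T cells, 1.97-fold higher (adjusted p = 4.93e-05). WC1.3, a scavenger receptor of the bovine gamma delta T cell family WC1, was 6.06-fold lower (SE 0.35 on the log2 scale, adjusted p = 4.34e-06), although its probes may also read related WC1 genes.

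In the complement list, 2 of 24 genes were higher and 7 lower. CFB, the protease of the alternative pathway, was 3.67-fold lower and C2, its counterpart in the classical pathway, 3.44-fold lower (adjusted p = 0.000672 and 0.000235), while C3 differed by -0.45 (adjusted p = 0.240). Among 24 chemokines 5 were higher and 6 lower. Beside CXCL14, the neutrophil attractant CXCL3 was 4.47-fold lower without overlap (SE 0.35 on the log2 scale, adjusted p = 3.93e-05) and CXCL12, which holds blood cell precursors in their niche, 2.05-fold lower. The eosinophil attractant CCL11 differed by 2.40 (SE 0.55, adjusted p = 0.00123), by 2.80 without the array labelled Kid 2, its lowest Kid array, and by 0.79 with normexp, and CXCL8, another neutrophil attractant, by 1.24 (SE 0.26, adjusted p = 0.000571). Of 18 interferon-stimulated genes 1 was past the threshold, RSAD2, an antiviral enzyme, at -1.60 (SE 0.26, adjusted p = 4.91e-05). Without Kid 1, 5 and 12 the list had 10 genes lower and none higher, and its median of -0.20 became -0.51, whereas within scan day 1 the median was 0.14.

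Vessel and muscle genes were measured as markers of other cells in the tissue. In the endothelial list 5 of 18 were higher and 2 lower, and 3 and none within scan day 1. KDR, the main receptor for VEGF, ranged from 0.48 to 1.54 in Kid and from -0.51 to 0.26 in SC, 2.25-fold higher (SE 0.13 on the log2 scale, adjusted p = 2.86e-07), FLT1, a second VEGF receptor, was 2.56-fold higher (adjusted p = 1.55e-05, with a difference of 1.36 that was 0.82 with normexp), and the junction protein PECAM1, a general endothelial marker, was 1.59-fold lower (adjusted p = 0.00202), with an adjusted p of 0.0796 within scan day 1. Of 15 smooth muscle genes 2 were lower. ACTA2, smooth muscle actin, differed by 0.63 (adjusted p = 0.113) with SC 10 and by 0.91 (adjusted p = 0.000440) without it, or by 0.74 (adjusted p = 0.0222) with scan day as a block over the 96 arrays, and MYH11, smooth muscle myosin, by 0.32 (adjusted p = 0.629) with SC 10 and 0.75 (adjusted p = 0.0382) without it. SC 10 was picked out by the sum of these markers, so the larger differences without it follow from the choice. In Wagyu x Angus arrays alone, where the Hereford array SC 10 does not enter, ACTA2 differed by 1.19 (adjusted p = 0.0128) and MYH11 by 1.17 (adjusted p = 0.0316). Neither was past the threshold in Angus or in Hereford arrays alone.

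Skeletal muscle genes had 4 of 18 higher and 1 lower with a median of 0.55, but 1 higher and 3 lower with a median of -0.03 within scan day 1, and 1 and 2 without Kid 4 and 11. The myosins MYL2 and MYH2 differed by 2.52 (adjusted p = 0.00548) and 2.28 (adjusted p = 0.0163) over all arrays, and by 1.44 (adjusted p = 0.0845) and 0.28 (adjusted p = 0.716) within scan day 1. With normexp they differed by 1.12 and 0.76 (adjusted p = 0.0371 and 0.0556).

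Of 18 nerve and Schwann cell genes 3 were higher and 5 lower, or 4 and 4 with quantile normalization or normexp. Their summed level was 37.8 to 63.3 in Kid and 66.5 to 108.1 in SC, without overlap. SOX10, the transcription factor of the Schwann cell lineage, and CDH19, a cadherin of the same cells, differed by 2.23 and 2.24 (adjusted p = 4.99e-07 and 7.37e-06), but by 0.54 and 1.26 with normexp, and SOX10 was well above background on 3 SC arrays only. S100B, a calcium-binding protein found in both Schwann cells and adipocytes, was 2.69-fold lower and UCHL1, a ubiquitin hydrolase of neurons, 6.17-fold lower (adjusted p = 5.48e-05 and 6.11e-06).

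Genes of tissue next to either depot were measured as well. Of 9 kidney genes measured only AQP1, a water channel that vessels also carry, was past the threshold, with 2.27-fold higher levels (adjusted p = 0.000485). The summed level of the kidney list, AQP1 included, was 10.7 to 35.8 in Kid (median 19.3) and 5.42 to 18.2 in SC (median 8.09). Of 13 adrenal genes 1 was higher and 2 were lower, and CYP17A1, an enzyme of steroid synthesis, was 1.67-fold lower in Kid (adjusted p = 1.35e-05). Of 16 skin genes 4 were lower, near the share over all named genes, among them SBSN, a protein of the epidermis, by 2.38-fold (adjusted p = 0.00223). The difference of SBSN was -1.25, and -0.82 with normexp. In the mesothelium list 1 of 13 was higher and 3 lower: UPK3B was 1.57-fold lower (adjusted p = 2.62e-05, but 0.0563 in the fit over 60 fat arrays) and MSLN, the name-giving surface protein, differed by -0.23 (SE 0.34, adjusted p = 0.609).

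Among immediate early genes, which respond within minutes to handling and injury, 5 of 18 were higher and 5 lower. The nuclear receptors NR4A3 and NR4A1 were higher by 2.59 (SE 0.40, adjusted p = 2.63e-05) and 1.79 (SE 0.29, adjusted p = 4.59e-05), and with normexp NR4A3 differed by 1.05, whereas IER3 was lower by 2.41-fold (adjusted p = 3.57e-05) and FOS differed by -0.85 (adjusted p = 0.00687, and 0.138 within scan day 1). In the circadian clock list 6 of 12 were lower and none higher, with a median of -0.44. NR1D1, the clock repressor REV-ERB alpha, ranged from -4.99 to -1.85 in Kid (median -3.13) and from -1.30 to 0.80 in SC (median 0.10), 9.13-fold lower (SE 0.29 on the log2 scale, adjusted p = 3.51e-08). HLF, a transcription factor under clock control, differed by -1.27 (SE 0.19, adjusted p = 1.53e-05), but by -0.38 with normexp. The time of day at which each depot was dissected is not in the labels.

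The Kid arrays were also set against the other fat depots, in one fit over the 60 fat arrays. Against Omen 3472 probes were higher in Kid (10.1%) and 3016 lower (8.81%), and against Inter 3626 higher (10.6%) and 3497 lower (10.2%). Against IMF 10160 were higher (29.7%) and 10507 lower (30.7%). The study reports that its dissected IMF held some LD muscle, so contrasts with IMF may also hold muscle RNA. The share of muscle in them was not tested. The balance of directions depended on the scaling: the share of calls higher in Kid was 53.5%, 50.9% and 49.2% here but 68.7%, 60.7% and 55.7% after centring on the median, and 28.8%, 34.9% and 41.1% with the values of the authors minus the 75th percentile. With scan day as a block the calls fell from 6488 to 3071 against Omen and from 7123 to 4210 against Inter. In total 7248, 8588 and 20553 probes were past the threshold without the array labelled Kid 2. These contrasts share the Kid arrays with Kid minus SC, and 2 of the 12 Inter arrays were nearest to a depot other than Inter. Inter 5 was nearest to Kid (correlation 0.36, against 0.28 with Inter) and lay on the same slide as Kid 2. Inter 8 was nearest to IMF. The values without Kid 2 keep both of these Inter arrays, so all values stand side by side only as measured. DLK1 was higher in Kid than in Omen by 4.82, Inter by 2.82 and IMF by 2.33, and ADRB3 by 1.43, 2.38 and 3.89, so for both genes Kid had the highest mean of the 5 depots and SC the lowest. GPAT3 followed the same order of extremes, with means of 3.85 in Kid, 3.05 in Omen, 2.57 in Inter, 1.67 in IMF and 0.24 in SC. KERA had its lowest mean in Kid, with differences of -5.40, -7.90 and -8.54 from Omen, Inter and IMF. Most Kid arrays were not well above background at KERA, so these sizes rest on background values in Kid.

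Other genes set SC rather than Kid apart. IRX5 had means from -5.00 to -3.50 in the other 4 depots against -0.49 in SC, and EN1 means from -6.54 to -3.64 against -0.82, with no array of another depot as high as the lowest SC array. ANGPTL5, CXCL14 and SHOX2 divided the depots differently: Kid differed from Omen by -0.24, -0.32 and 0.51, but from Inter by -4.73, -4.17 and -2.82 and from IMF by -5.17, -3.98 and -4.02. Without the array labelled Kid 2 the differences from Omen were -0.56, -0.68 and 0.27 (adjusted p = 0.437, 0.251 and 0.483). HOXA10 was higher in Kid than in Omen by 7.05, in Inter by 4.07 and in IMF by 1.33, and lower than in SC.

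**Figure D5:**
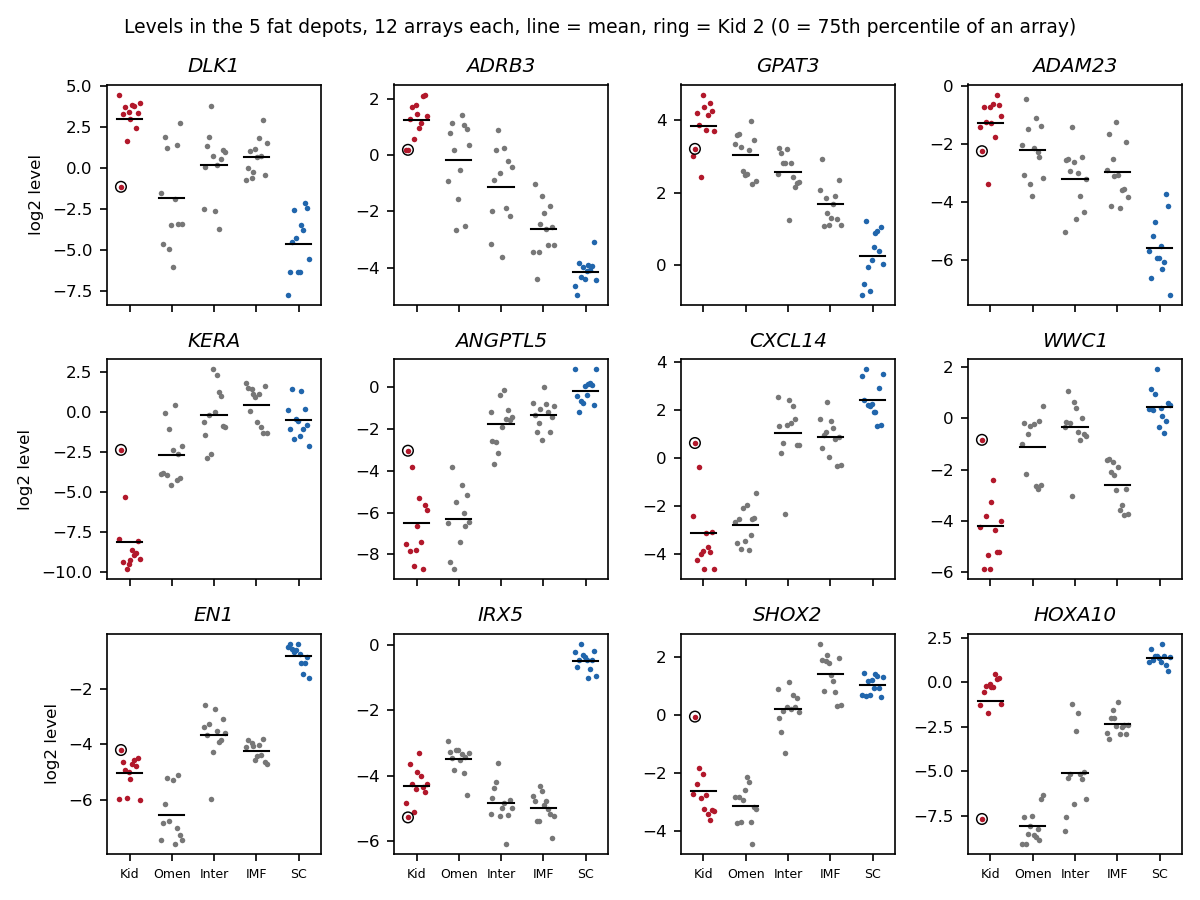
Log2 levels (0 = 75th percentile of an array) of 12 genes in the 5 fat depots, 1 point per array and 12 arrays per depot, with lines at the means, Kid in red, SC in blue, the other depots in grey and a ring around the array labelled Kid 2. DLK1, ADRB3, GPAT3 and ADAM23 have their highest mean in Kid and lowest in SC, EN1 and IRX5 are highest in SC, and the ringed array lies among the Inter arrays at KERA, CXCL14 and SHOX2.

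The difference between the depots was also compared between breeds. No probe was past an adjusted p of 0.05 in the depot by breed interaction (0.00%), and 1471 probes (4.30%) were under an unadjusted p of 0.05 in limma's F test. Within single breeds, each with 4 arrays per depot, 2095 probes were higher (6.12%) and 2369 lower (6.92%) in Kid in Angus. Hereford had 508 higher (1.48%) and 720 lower (2.10%), and Wagyu x Angus 2620 higher (7.65%) and 2484 lower (7.26%). The 4 Hereford Kid arrays were Kid 2, 5, 11 and 12, all picked out above by their match to Inter or their marker sums. Breed and these traits cannot be told apart in Hereford. ADRB3 differed by 5.45, 4.78 and 5.96 in Angus, Hereford and Wagyu x Angus, EN1 by -4.05, -4.26 and -4.32 and IRX5 by -3.79, -4.25 and -3.46. The leading DLK1 probe differed by 7.77, 5.09 and 9.97 (interaction p = 0.00163, adjusted p = 0.920). Its direction was the same in all 3 breeds and the unequal size did not pass the correction. In Wagyu x Angus its 4 SC levels were about -6.36 or lower, below every level well above background on those arrays. The size of 9.97 therefore rests on background values in SC.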

How the data were processed

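Total RNA of each fat sample was hybridised to a 1-colour Agilent bovine array. The authors deposited the intensity values of each array as read by Agilent Feature Extraction 10.7.3.1, including a processed signal that is corrected for background but was not put on a common scale for the 96 arrays. A second deposited table holds log2 values per probe, reproduced here to within 8.3e-05 by subtracting the local background median from the median signal, and it too lacks any normalisation of one array to another, so it is not the mixed-model normalised data of the methods. Signal over background, given at the start of the results, limits the precision here, as does the number of arrays.

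Outlier spots were dropped, spots of a probe were averaged, and the 75th percentile of each array over its non-control probes was subtracted from log2 processed signal. The 34227 probes of the deposited log2 table were tested out of 43653 that are not controls, with no filter on dim probes. No spot was saturated. RefSeq accessions named 19903 probes and the tables of the study a further 1542, together 62.7% of probes and 10653 genes. No nucleotide or protein sequence is given, since none was used here.

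For Kid minus SC a linear model with depot and breed was fitted to the 24 arrays alone by limma 3.58.1 (functions lmFit and eBayes, R 4.3.3, files read by data.table, version 1.17.8). The threshold was a Benjamini-Hochberg adjusted p of 0.05 across the 34227 probes. The dependence on breed was tested by the 2 interaction terms, and the other depots by one fit over the 60 fat arrays. Tables and figures were made in Python 3.11.15 with numpy 2.4.6, pandas 2.3.3 and matplotlib 3.10.9, and the fits were tested on simulated data. Alternatives were other scalings, background correction by normexp (offset 50) on the median signal, the deposited log2 values, other probe sets, the methods' t-test, slide, scan day and replicate number as blocks, single breeds, and leaving out arrays.

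Genes were named by 3 rules. The first took the 12 highest and 12 lowest differences with a gene name, past the threshold, without overlap and well above background on all 12 arrays of the brighter depot, at the probe with the largest difference. The second took HOXA10, DLK1, TDH, TMEFF2 and CLDN10, which the study tabulates from these samples. The third took, in each of 34 lists holding 879 genes of which 654 were measured, the defining genes and the 3 highest and 3 lowest past the threshold, at the probe with the highest mean, and only some of these are named in the text. Single genes that the rules name, among them 1 of the 12 highest, are not reported here. The members and lists were chosen with earlier results of these data known. All tests are two-sided.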

Additional observations from a re-analysis of the deposited data

Results flagged for a closer look

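Dixon's ratio of the gap to the range was taken in the 162 groups of 4 arrays of one breed and depot at the leading and tabulated genes. It passed its 95% critical value in 9 groups, close to the share of about 1 in 20 that chance gives. The array SC 1 of Wagyu x Angus accounted for 3 of them, with low levels at DLK1 (-7.73, other arrays at -6.36), BTC (-8.12, others -5.80 to -5.60) and CLDN10 (-1.84, others 2.75 to 3.28). Its levels at DLK1 and BTC lay below -6.21, the dimmest level well above background on SC 1, so both are background values. The other DLK1 levels of this group were not well above background either. The array labelled Kid 2 of Hereford stood apart at SHOX2 (-0.06, others -3.30 to -2.86). In Wagyu x Angus, SC 7 was high at LOC790886 (-0.52, others -2.32 to -2.16) and Kid 8 was high at CHRNA3 (-1.86, others -3.54 to -3.33). In Hereford, SC 11 was high at ADRB3 (-3.09, others -3.94 to -3.84) and Kid 5 at LOC513055 (3.50, others 2.25 to 2.45), and in Angus Kid 4 was high at ANGPTL5 (-3.84, others -7.84 to -7.48). Apart from CLDN10 these genes were chosen for having no overlap, so none of their levels could cross into the range of the other depot. At CLDN10 the level of SC 1 did cross.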

How the results depend on the processing

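The 14299 Kid minus SC calls numbered 13196 to 17758 under quantile normalization, mean or median centring, normexp, the authors' values minus the 75th percentile, all probes, a filter on dim probes, no breed term, the methods' t-test and the fit over 60 arrays, and 13205 (without SC 3) to 14818 (without Kid 5) with 1 array left out. Chosen after seeing the data, they were 14178 without Kid 1, 5 and 12 and 13904 without Kid 4 and 11. They were 26662 with the authors' values as they stand, 1136 with slide as a fixed block, 0 within the only slide that could be fitted, where 1 Kid array leaves too little for a judgement, and 4464, 1228 and 5104 in Angus, Hereford and Wagyu x Angus arrays alone, where fewer arrays enter. Replicate numbers are not known to pair animals: deviations of Kid and SC arrays with one number had a median correlation of 0.03 (36 pairs) against -0.005 (108 pairs) for different numbers, and the replicate block gave 14799 calls, or 6810, 7429 and 20690 against Omen, Inter and IMF, and changed no call of a named gene. Against Omen and Inter the calls numbered 2391 and 3591 with the authors' values as they stand and 3071 and 4210 with scan day as a block; the causes were not tested. The share higher in Kid was 64.2% against Omen after mean centring, 9.97% against Inter with the authors' values as they stand, and against IMF 60.6% with quantile normalization, 62.2% with mean centring, 60.2% with normexp and 69.7% with the authors' values. No alternative gave a call in the breed interaction.

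With the authors' values as they stand, where all probes shifted by a median of 0.83, these differences turned positive: PLIN1 0.64, FABP4 0.33, PDGFRA 0.0587, HOXC10 0.75, UPK3B 0.21, FASN 0.0226, DGAT2 0.64, PNPLA2 0.74, LIPE 0.63, SLC2A4 0.91, NDUFA3 0.33, BMP4 0.82, IGF1 0.46, IGF2 0.14, PECAM1 0.26, CYP17A1 0.19 and FOS 0.0676. Apart from SLC2A4 each stayed below that shift. FABP4 also turned to 0.0348 with normexp. Over all alternatives, many of which only leave out 1 array or recentre the same values, 5541 of 5842 values of named genes kept their direction and side of the threshold. Of the 127 probes 58 did so with slide as a fixed block, 53 in Hereford arrays alone and 88 with the authors' values as they stand. Of 544 list medians 513 moved by less than the spread between arrays. The lists that moved did so with the authors' values as they stand, apart from fatty acid synthesis within scan day 1 (-0.55) and skin with the slide block (-0.39).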

Other observations

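Several genes varied between the Kid arrays far more than between the SC arrays, and values of the most variable named genes are given here without a test. SPP1, the secreted phosphoprotein osteopontin of macrophages and bone, had an SD of 3.38 in Kid and 1.29 in SC, and its 3 highest levels, 6.92, 7.60 and 6.47, came from Kid 1, 5 and 12, the arrays with the highest macrophage marker sums of that depot. The same 3 arrays were the highest for the beta-defensin DEFB5 (3.77, 6.31 and 4.35) and for the gelatinase MMP9 (2.22, 5.45 and 4.37). SD in Kid and SC was 3.08 and 1.03 for DEFB5 and 2.73 and 0.60 for MMP9. MPO, the myeloperoxidase of neutrophils, had an SD of 2.75 in Kid and 0.84 in SC, the lysosomal membrane protein GPNMB 2.51 and 0.61, and the lysosomal lipase LIPA 2.32 and 0.65. None of these 6 genes was past the threshold in Kid minus SC, with adjusted p-values of 0.0763 for MMP9 to 0.786 for SPP1. The fast myosin light chain MYL1 had an SD of 3.01 in Kid and 1.10 in SC, with its highest levels, 1.34 and 1.87, on Kid 4 and Kid 11. PRSS2, the pancreatic protease trypsin 2, and BOLA-DQA5, a class II histocompatibility gene, were as variable in SC, with SDs of 3.13 and 3.13 for the first and 2.42 and 2.80 for the second. Probes of polymorphic gene families may read alleles unequally, which was not tested.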
